A study of Mus musculus with 64 samples.

Results

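MORC1 is a nuclear ATPase of the GHKL family that male germ cells need to finish spermatogenesis, and the study asked which genes and transposable elements depend on it for repression. The data described here are the RNA-seq libraries of germ cells sorted at postnatal day 2.5 (P2.5), 2 from Morc1tg/tg males and 3 from heterozygous Morc1tg/+ males, which make up 5 of the 64 samples of the series and 5 of its 20 libraries of sorted germ cell RNA. The Morc1tg allele arose in FVB/N mice, where a tyrosinase transgene inserted into Morc1 and removed exons 2 to 4, and for sorting it was crossed into the mixed background of the Oct4-IRES-eGfp reporter, which labels germ cells with green fluorescent protein. All 5 mice carried at least 1 copy of the allele and the reporter, so the control group was heterozygous and not wild type. Each library came from 1 mouse and was made from 10 ng of total RNA after depletion of ribosomal RNA.

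At this age the male germ line consists of prospermatogonia, the cells that have left the mitotic arrest of fetal life or are about to, and that give rise to spermatogonial stem cells and to the first differentiating spermatogonia. They have by then laid down most of the DNA methylation of the male germ line, which silences transposable elements together with the PIWI-interacting RNA (piRNA) pathway and repressive chromatin. The promoters of some genes lie in or beside transposable elements, and these genes can share the fate of the element.

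Few genes passed the test at P2.5. Of 26385 genes listed, 8385 had no read in the 5 libraries and 14413 were tested by edgeR's quasi-likelihood test on the read counts, with a gene called where its Benjamini-Hochberg adjusted p was under 0.05. The test called 7 genes (0.0486%), of which 6 were higher in Morc1tg/tg (0.0416%) and 1 was lower (0.00694%). The 6 genes that rose were Col6a3, Cd209c, Ctsh, Samd9l, Cdh12 and 2610005L07Rik, and the gene that fell was Morc1. An unadjusted p under 0.05 was found for 698 genes (331 higher and 367 lower), where that threshold would give 721 if no gene differed. In 10.9% of the genes tested both Morc1tg/tg libraries lay above all 3 Morc1tg/+ libraries, and in 11.6% they lay below. The median log2 fold change of all genes tested was -0.02.

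**Figure D1:**
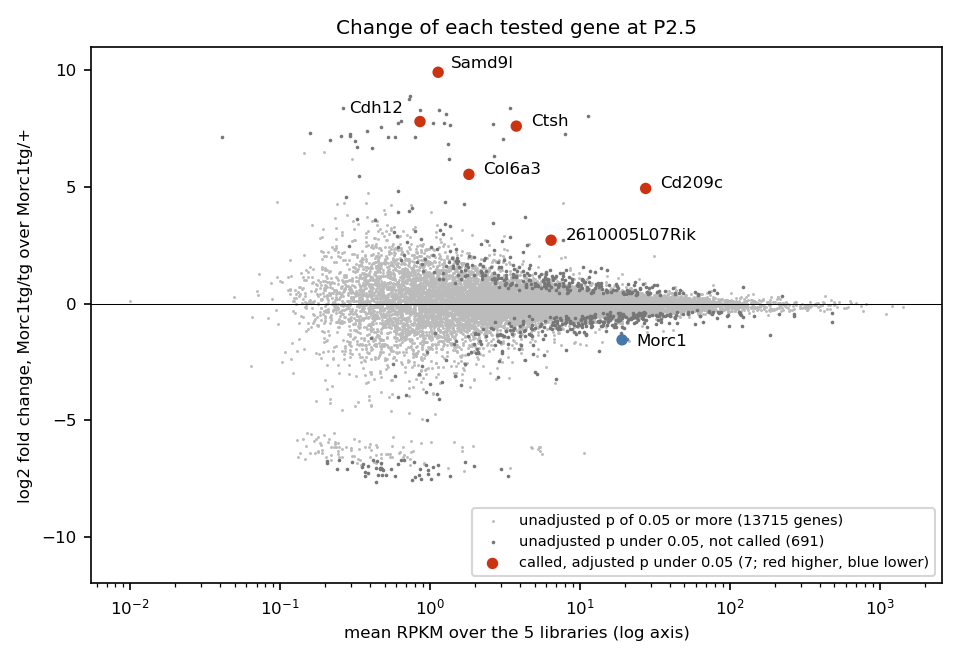
Log2 fold change of Morc1tg/tg over Morc1tg/+ (vertical axis) against the mean RPKM over the 5 libraries (horizontal axis, logarithmic) for the 14413 genes tested, with the 7 called genes named. The bands above 6 and below -6 hold genes with no or almost no read in 1 genotype, whose plotted fold depends on the prior count of the fit.

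The libraries differed in depth. Reads counted on genes ranged from 2413679 to 6880081 per library, and the libraries numbered 1 of both genotypes were the shallowest. Morc1tg/tg replicate 1, the shallowest of all, had correlations of log counts scaled to depth of 0.826 to 0.855 with the other 4 libraries. Those 4 correlated with one another at 0.873 to 0.933. No library was a copy of another, since the lowest chi-square per gene between libraries was 9.94. The calls also rested on every control library. Without Morc1tg/+ replicate 1 only Col6a3 was called by edgeR, and without replicate 2 or replicate 3 no gene was called, with 417 and 393 genes at an unadjusted p under 0.05. Without Morc1tg/tg replicate 1, Morc1 and Ctsh were no longer called (edgeR adjusted p = 0.0679 and 0.241), and without Morc1tg/tg replicate 2, Samd9l and Cdh12 were not (edgeR adjusted p = 0.0688 and 0.0909). Every one of these fits kept the direction of the 7 genes. DESeq2 on all 5 libraries called 21 genes (0.129%) and limma voom with sample weights called 12 (0.0833%).

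The targeted gene followed its labels. Morc1 (ENSMUSG00000022652, mm9 chr16:48431350-48631018, plus strand) stood at 23.8, 24.3 and 29.9 RPKM (reads scaled to transcript length and library depth) in the 3 Morc1tg/+ libraries and at 7.82 and 10.1 RPKM in the 2 Morc1tg/tg libraries. The groups did not overlap, with means of 26.0 ± 3.43 (SD, n = 3) and 8.94 ± 1.59 RPKM (SD, n = 2). Morc1 fell by 2.94-fold (log2 fold change -1.56 ± 0.24 SE, edgeR adjusted p = 0.0257). The gene level sums all exons, so reads from exons outside the deletion still counted in Morc1tg/tg. Tyr, the gene carried by the transgene, had 0, 14 and 30 reads in Morc1tg/+ and 15 and 11 reads in Morc1tg/tg, and its groups overlapped (log2 fold change 0.73 ± 1.73 SE, edgeR adjusted p = 0.998).

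To show what lies at the starts of 4 of the 6 genes that rose, the sequence from 250 bases before to 50 bases past the annotated start is printed for each, read from the mm9 genome on the strand of the gene. Capitals mark bases that lie within a word of 31 bases found more than once in the genome, and lower case marks the rest. The windows are chr1:92740480-92740779 for Col6a3, chr8:3954697-3954996 for Cd209c, chr6:3349522-3349821 for Samd9l and chr15:21040957-21041256 for Cdh12.
Samd9l: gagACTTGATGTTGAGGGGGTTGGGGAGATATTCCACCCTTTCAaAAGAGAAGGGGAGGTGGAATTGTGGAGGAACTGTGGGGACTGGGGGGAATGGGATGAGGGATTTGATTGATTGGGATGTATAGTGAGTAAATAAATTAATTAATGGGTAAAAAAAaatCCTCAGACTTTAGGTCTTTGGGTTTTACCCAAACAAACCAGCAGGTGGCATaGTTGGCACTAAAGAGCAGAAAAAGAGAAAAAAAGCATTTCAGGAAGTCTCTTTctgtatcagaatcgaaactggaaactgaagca
Col6a3: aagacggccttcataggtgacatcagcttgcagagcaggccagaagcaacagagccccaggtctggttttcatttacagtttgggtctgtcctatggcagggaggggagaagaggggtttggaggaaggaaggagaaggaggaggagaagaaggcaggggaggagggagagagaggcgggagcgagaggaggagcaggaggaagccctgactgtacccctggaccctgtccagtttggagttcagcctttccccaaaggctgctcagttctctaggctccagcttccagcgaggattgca
Cd209c: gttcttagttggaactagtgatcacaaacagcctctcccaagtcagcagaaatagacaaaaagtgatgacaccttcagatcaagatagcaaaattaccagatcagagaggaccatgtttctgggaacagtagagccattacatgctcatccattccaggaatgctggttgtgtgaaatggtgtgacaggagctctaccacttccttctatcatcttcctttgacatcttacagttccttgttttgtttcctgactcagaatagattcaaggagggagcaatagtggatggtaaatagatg
Cdh12: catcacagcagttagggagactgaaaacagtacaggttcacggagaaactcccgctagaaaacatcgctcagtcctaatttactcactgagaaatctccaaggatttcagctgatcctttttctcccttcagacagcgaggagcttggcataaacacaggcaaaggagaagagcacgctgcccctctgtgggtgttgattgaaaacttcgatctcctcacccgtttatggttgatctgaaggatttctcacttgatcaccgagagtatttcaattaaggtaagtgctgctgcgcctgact

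In the Samd9l window 51.9% of the words occurred more than once in the genome, and the most frequent of them occurred 2 times. The windows of Col6a3, Cd209c and Cdh12 held no repeated word. CG pairs, the sites of DNA methylation, numbered 0 in the Cd209c window, 1 in Samd9l, 4 in Col6a3 and 9 in Cdh12. For comparison, 12.6% of the windows of the same length at all 14413 genes tested held a repeated word. In 1.57% of those windows at least 50% of the words were repeated. The median number of CG pairs was 19. The starts of Ctsh and 2610005L07Rik are not described here, so the 4 windows give no share for the 6 genes that rose, and no distance to an element outside them was measured.

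Col6a3 encodes a chain of type VI collagen, a microfibrillar protein of the extracellular matrix. Its level (ENSMUSG00000048126, chr1:92663435-92740529, minus strand) was 0.223, 0.0328 and 0.0726 RPKM in Morc1tg/+ and 5.30 and 3.50 RPKM in Morc1tg/tg. Both Morc1tg/tg libraries lay far above every control, and Col6a3 rose by 5.54 ± 0.61 SE on the log2 scale (edgeR adjusted p = 0.00418). It was the gene with the smallest p of the comparison.

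Cd209c encodes a C-type lectin of the DC-SIGN family of surface receptors. The gene (ENSMUSG00000040165, chr8:3940222-3954746, minus strand) stood at 0, 1.91 and 3.79 RPKM in Morc1tg/+ and at 35.3 and 96.8 RPKM in Morc1tg/tg, the highest level among the 6 genes. It rose by 4.93 ± 0.60 SE on the log2 scale (edgeR adjusted p = 0.00539). DESeq2 gave a log2 fold change of 5.12 with an adjusted p of 0.577 and so did not call it. In the exons of Cd209c 53.4% of the words of 31 bases occurred elsewhere in mm9. Reads were 50 bases long and were first mapped to annotated genes and repeats, so the part of the transcript open to counting was not measured.

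Ctsh encodes cathepsin H, a lysosomal cysteine protease. It had 0, 3 and 0 reads in Morc1tg/+ and 170 and 115 reads in Morc1tg/tg (ENSMUSG00000032359, chr9:89948990-89970927, plus strand), or 0, 0.108 and 0 RPKM against 14.7 and 4.08 RPKM. Over the summed reads of each group the rate in Morc1tg/tg was 163 times that in Morc1tg/+, with a 95% interval of 55.1 to 793 that covers counting error only (edgeR adjusted p = 0.00539). The higher level was in Morc1tg/tg replicate 1. Without that library the log2 fold change was 6.37 and the adjusted p was 0.241 by edgeR.

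Samd9l encodes a protein with a sterile alpha motif that interferon induces and that restrains growth and viruses. It had no read in the 3 Morc1tg/+ libraries and 41 and 213 reads in the Morc1tg/tg libraries (ENSMUSG00000047735, chr6:3322257-3349571, minus strand), that is 1.82 and 3.87 RPKM. With the control group set to a floor of 3 reads in all, Samd9l was at least 145-fold higher in Morc1tg/tg (edgeR adjusted p = 0.00886). Cdh12, which encodes a classical cadherin best known from the brain, had 0, 0 and 1 read in Morc1tg/+ and 37 and 159 reads in Morc1tg/tg (ENSMUSG00000040452, chr15:21041207-21519288, plus strand). Its levels were 0, 0 and 0.0165 RPKM against 1.55 and 2.74 RPKM. The ratio of the summed reads was 336, and its 95% counting interval was wide, from 59.5 to 13319.8 (edgeR adjusted p = 0.0161). Of the 6 genes that rose, limma voom did not call Cdh12 or Ctsh.

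2610005L07Rik is annotated as a processed transcript (ENSMUSG00000071793, chr8:19863337-20020413, minus strand). It was the one gene of the 6 that every control library expressed evenly, at 1.78, 2.11 and 1.97 RPKM, and it stood at 8.09 and 18.3 RPKM in Morc1tg/tg. It rose by 2.71 ± 0.36 SE on the log2 scale (edgeR adjusted p = 0.00886). In its exons 83.4% of the words of 31 bases occurred elsewhere in the genome. The transcript 6820431F20Rik overlaps part of its span on the same strand, so the reads of these loci are uncertain. It stood at 1.48, 0.295 and 1.22 RPKM against 6.65 and 7.53 RPKM (log2 fold change 2.85 ± 0.53 SE, edgeR adjusted p = 0.139). DESeq2, limma voom and an edgeR fit of all 20 sorted libraries called 6820431F20Rik higher.

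**Figure D2:**
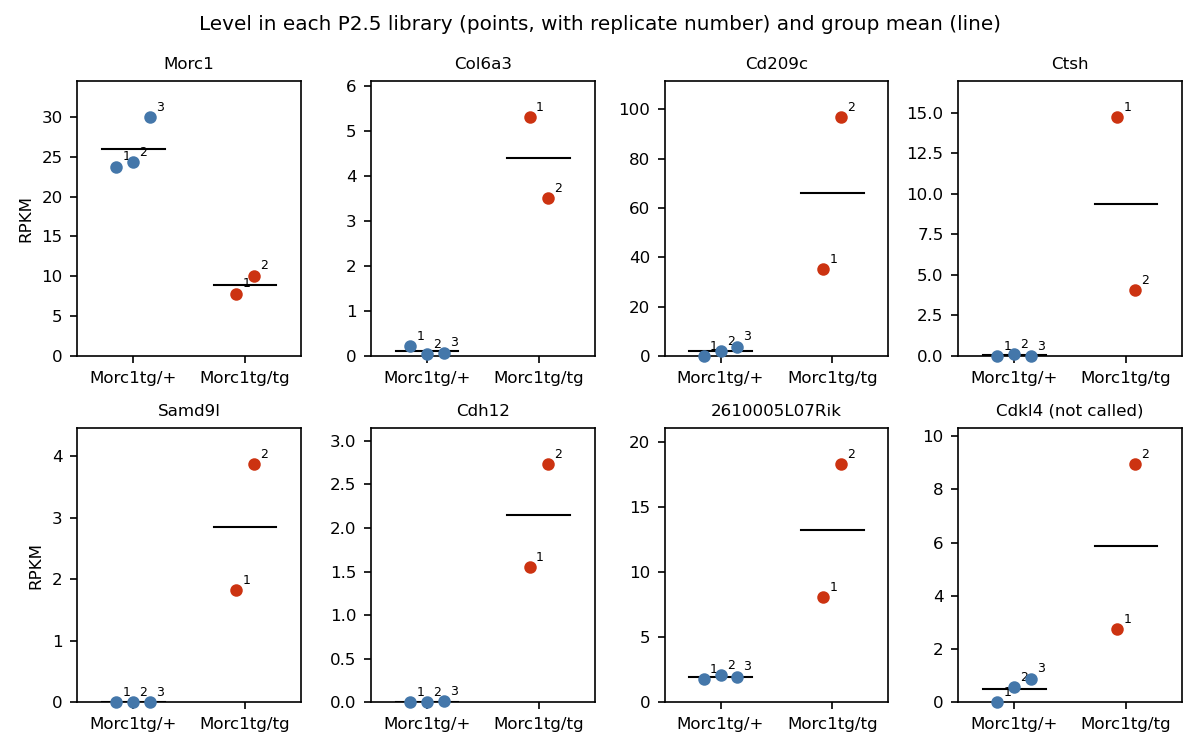
RPKM in each P2.5 library (vertical axes, each on its own scale) for the 7 called genes and for Cdkl4, which was not called. Points are libraries with their replicate number and lines are group means. In all 8 genes the Morc1tg/tg libraries sit on 1 side of the Morc1tg/+ libraries, below them for Morc1 and above them for the others. Over all genes tested, in counts scaled to depth, 10.9% lay above in this way and 11.6% below. These genes were chosen by their P2.5 values, so the gap is not separate evidence for them.

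Beyond the 7 genes, those of smallest p without overlap between the genotypes did not pass edgeR's test on the 5 libraries, but some passed other fits. The edgeR fit of all 20 sorted libraries, which takes its spread from all of them, called 79 of 17758 genes at P2.5 (0.445%). Clec2g, a C-type lectin gene, came closest, with 0, 0 and 0.189 RPKM in Morc1tg/+ and 2.50 and 10.8 RPKM in Morc1tg/tg (edgeR adjusted p = 0.0530). Ky, a muscle peptidase gene, stood at 0, 0.162 and 0.393 RPKM against 3.65 and 4.24 RPKM (edgeR adjusted p = 0.0820). Both were thus at or near 0 in the controls, as were Slc15a2 and Slc14a1, which encode a peptide transporter and a urea transporter. Slc15a2 had no read in Morc1tg/+ and 33 and 72 reads in Morc1tg/tg, and Slc14a1 none against 44 and 30 (edgeR adjusted p = 0.276 and 0.633). DESeq2 on the 5 libraries and the edgeR fit of 20 libraries both called all 4 higher.

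Other genes that edgeR did not call on the 5 libraries were expressed in every library. Col6a5, which encodes another type VI collagen chain, stood at 1.11, 1.13 and 1.02 RPKM in Morc1tg/+ and at 2.63 and 5.56 RPKM in Morc1tg/tg. Parn, a poly(A) ribonuclease gene, stood at 5.48, 8.59 and 6.65 RPKM against 17.3 and 20.2 RPKM. Sfi1, which encodes a centrosomal protein, stood at 8.09, 7.16 and 7.79 RPKM against 26.6 and 13.3 RPKM. Gabrr1, which encodes a GABA receptor subunit, stood at 0.195, 0.388 and 1.51 RPKM against 5.19 and 14.2 RPKM. Their edgeR adjusted p values were between 0.146 (Gabrr1) and 0.364 (Sfi1). DESeq2, limma voom and the edgeR fit of 20 libraries each called all 4 higher.

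On the lower side, edgeR on the 5 libraries called none of the 14 genes of smallest p without overlap beyond Morc1. Dhcr7, the last enzyme of cholesterol synthesis, stood at 51.4, 38.8 and 51.7 RPKM in Morc1tg/+ and at 25.9 and 27.9 RPKM in Morc1tg/tg (log2 fold change -0.83, edgeR adjusted p = 0.633). Hsd17b4, an enzyme of peroxisomal fatty acid oxidation, stood at 25.1, 20.1 and 29.1 RPKM against 13.2 and 11.1 RPKM. H2afx, the histone variant that marks DNA breaks, stood at 56.1, 74.7 and 84.6 RPKM against 37.7 and 42.6 RPKM, and the helicase gene Blm at 11.5, 13.4 and 10.6 RPKM against 5.85 and 6.67 RPKM. These 3 had log2 fold changes of -1.04, -0.86 and -0.95 and edgeR adjusted p values of 0.699, 0.772 and 0.931.

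The others on this side were 1500002O20Rik, Btbd6, Prdm4, Bahcc1, Fbxo21, Adcy10, Sez6, Mex3a, Cox7a2 and Sohlh1, with edgeR adjusted p values of 0.392 (1500002O20Rik) or more. In 1500002O20Rik the level was 15.2, 8.19 and 11.5 RPKM in Morc1tg/+ and 2.12 and 3.65 RPKM in Morc1tg/tg. Adcy10, the soluble adenylyl cyclase gene, had 72, 90 and 56 reads against 0 and 12. DESeq2 called these last 2 lower, and limma voom called Sez6 lower. The edgeR fit of 20 libraries called 8 of the 14 lower, namely 1500002O20Rik, Hsd17b4, Blm, Prdm4, Bahcc1, Fbxo21, Cox7a2 and Sohlh1.

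An on or off pattern was counted over all 26385 genes listed. No read in the 3 Morc1tg/+ libraries with at least 10 reads in each Morc1tg/tg library was found for 26 genes, among them Samd9l, Slc15a2, Slc14a1 and Chl1, a cell adhesion gene. The reverse, no read in the 2 Morc1tg/tg libraries with at least 10 reads in each of the 3 Morc1tg/+ libraries, was found for 9 genes. The groups were not equally deep, with 15469012 reads on genes in Morc1tg/+ and 8874767 in Morc1tg/tg. The patterns also differ in how many libraries had to hold 10 reads, so the counts of 26 and 9 cannot be compared directly.

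The gene lists that follow were read in the fits of the 5 P2.5 libraries, and calls by edgeR or DESeq2 refer to those fits unless another is named. For comparison with the lists, edgeR called 0.0486% of the 14413 genes tested and DESeq2 called 0.129% of its genes. At an unadjusted p under 0.05 edgeR had 331 of the 14413 genes higher and 367 lower. The edgeR fit of 20 libraries called Sohlh1, Cdkl4, Tmc2, Serpina3c and Sgce of the members described here. Without both libraries numbered 1 edgeR called 109 of 15110 genes (0.721%), among them the list members Sdc4, Igf2, Mki67, Aurkb and Hist1h2ak, which were lower, and Cdkl4, Serpina3c and Egr1, which were higher.

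Prospermatogonial and stem cell genes were not called by edgeR or by DESeq2. Of 24 members tested, 4 were lower and 1 was higher at an unadjusted p under 0.05, and the list median was -0.19 on the log2 scale against -0.02 over all genes tested. Both Morc1tg/tg libraries lay below all controls in 10 of the 24, and above them in 1, where the shares over all genes were 11.6% and 10.9%. Cdh1, the E-cadherin gene, stood at 27.7, 24.7 and 25.2 RPKM in Morc1tg/+ and at 17.7 and 17.0 RPKM in Morc1tg/tg (log2 fold change -0.60 ± 0.19 SE). Sdc4, a heparan sulfate proteoglycan gene, stood at 118, 103 and 108 RPKM against 86.1 and 68.0 RPKM (log2 fold change -0.53). Bcl6b, a transcription factor of the GDNF response, stood at 31.2, 35.5 and 36.2 RPKM against 25.9 and 24.1 RPKM (log2 fold change -0.48). All 3 had an adjusted p of 0.968.

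The same list held members that lay level. Sall4 stood at 123, 94.1 and 103 RPKM against 126 and 106 RPKM, and Ret, the GDNF receptor kinase gene, at 69.0, 55.1 and 56.7 RPKM against 57.4 and 56.5 RPKM. Pou5f1, which encodes OCT4 and carries the reporter used for sorting, stood at 17.4, 14.8 and 9.21 RPKM against 2.11 and 9.67 RPKM. Its groups overlapped, and the low value was in Morc1tg/tg replicate 1 (log2 fold change -1.24, edgeR adjusted p = 0.968). In sorted cells measured in bulk, fewer cells of a type and less RNA per cell cannot be told apart.

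Genes of spermatogonial differentiation, which act when stem cells commit, had a list median of -0.25 on the log2 scale over 11 members tested. Sohlh1, a transcription factor gene needed for that step, stood at 31.2, 22.7 and 27.3 RPKM in Morc1tg/+ and at 3.51 and 13.8 RPKM in Morc1tg/tg (log2 fold change -1.64 ± 0.45 SE, edgeR adjusted p = 0.966). Its partner gene Sohlh2 lay level, at 18.8, 16.7 and 24.0 RPKM against 20.8 and 22.0 RPKM. Kit, the receptor gene that marks differentiating spermatogonia, stood at 8.73, 14.8 and 14.7 RPKM against 7.79 and 9.85 RPKM, and Stra8, a retinoic acid target, at 17.4, 18.0 and 23.5 RPKM against 18.3 and 26.6 RPKM. Of these 11 genes 3 were lower at an unadjusted p under 0.05 (Sohlh1, Dmrt1 and Kit), and none was called by edgeR or DESeq2.

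Genes of the pathways that silence transposable elements showed no call, and their list medians lay near 0. None of 22 piRNA pathway genes, 17 genes of DNA methylation and 22 genes of heterochromatin and retroelement silencing was called by either tool, and none had an unadjusted p under 0.05. Their medians were -0.01, -0.04 and 0.04 on the log2 scale. Mael, a piRNA pathway factor, stood at 143, 215 and 227 RPKM in Morc1tg/+ and at 139 and 190 RPKM in Morc1tg/tg, and the maintenance methyltransferase gene Dnmt1 at 82.7, 87.8 and 91.6 RPKM against 82.1 and 90.6 RPKM. Tex19.1, a germ cell gene involved in retroelement control that is itself sensitive to DNA methylation, stood at 66.1, 48.4 and 57.9 RPKM against 79.5 and 74.0 RPKM (log2 fold change 0.40 ± 0.20 SE, edgeR adjusted p = 0.968). In the Morc family, Morc3 stood at 35.2, 32.2 and 37.8 RPKM against 26.5 and 40.8 RPKM and Morc2a at means of 23.2 and 21.7 RPKM. Neither paralog was called.

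Meiotic genes were detected before the onset of meiosis. None of 26 tested was called by either tool or reached an unadjusted p under 0.05, and their median was 0.07 on the log2 scale. Smc1b, a meiotic cohesin gene, stood at 88.8, 106 and 105 RPKM in Morc1tg/+ and at 86.6 and 105 RPKM in Morc1tg/tg. Tex15 varied between mice of the same genotype, at 44.8, 82.2 and 73.6 RPKM against 37.8 and 97.5 RPKM, with the low values in the libraries numbered 1.

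Genes that the study listed for a start site near a region of lower methylation in Morc1tg/tg germ cells were chosen on mice of this allele, so the list is not independent evidence of direction. Of 15 tested, 4 were higher and none lower at an unadjusted p under 0.05, and none was called by edgeR or DESeq2. Cdkl4, a kinase gene, stood at 0, 0.571 and 0.891 RPKM in Morc1tg/+ and at 2.75 and 8.95 RPKM in Morc1tg/tg (log2 fold change 3.45 ± 0.83 SE, edgeR adjusted p = 0.690). Tmc2, a channel gene known from hair cells, stood at 0.417, 0.123 and 0.349 RPKM against 3.70 and 2.27 RPKM, and Kat2b, an acetyltransferase gene, at 3.89, 7.30 and 7.58 RPKM against 10.1 and 13.7 RPKM. Serpina3c had 0 reads in all controls and 7 and 56 reads in Morc1tg/tg. The list median was -0.04, and Usp28, the most abundant member, stood at 30.2, 37.3 and 35.4 RPKM against 27.2 and 38.8 RPKM.

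Imprinted genes had a median of 0.09 over 28 members tested, with 3 higher at an unadjusted p under 0.05. Sgce stood at 0.202, 0.312 and 0.295 RPKM in Morc1tg/+ and at 2.90 and 2.11 RPKM in Morc1tg/tg (log2 fold change 3.15 ± 1.24 SE, edgeR adjusted p = 0.968). Dlk1 stood at 7.08, 5.53 and 7.28 RPKM against 14.3 and 8.59 RPKM, and Grb10 at 14.0, 21.4 and 21.1 RPKM against 22.2 and 32.4 RPKM. The most abundant members overlapped between genotypes, with Igf2 at 75.5, 83.2 and 92.0 RPKM against 88.6 and 49.9 RPKM and H19 at 46.0, 27.4 and 29.0 RPKM against 48.4 and 23.7 RPKM. No imprinted gene was called by edgeR or DESeq2 on the 5 P2.5 libraries. Sgce was called higher in the edgeR fit of all 20 sorted libraries (adjusted p = 0.0143).

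Cell cycle genes had a median of -0.14 over 27 members, of which 4 were lower and none higher at an unadjusted p under 0.05. Both Morc1tg/tg libraries lay below all controls in 12 of them, against 11.6% over all genes. Ccnb2, a mitotic cyclin gene, stood at 30.0, 29.7 and 37.0 RPKM in Morc1tg/+ and at 20.1 and 20.5 RPKM in Morc1tg/tg (log2 fold change -0.69), and Aurka, a mitotic kinase gene, at 17.2, 20.4 and 19.3 RPKM against 9.85 and 13.5 RPKM (log2 fold change -0.73). Mki67 stood at 88.9, 104 and 117 RPKM against 83.2 and 92.0 RPKM. Among 23 tested genes of DNA damage and apoptosis none had an unadjusted p under 0.05, and Mdm2, a p53 target, stood at 54.9, 78.5 and 80.6 RPKM against 72.2 and 82.1 RPKM. Neither list held a gene called by edgeR or DESeq2.

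Interferon and nucleic acid sensing genes were mostly low, and 9 of the 26 in the table stayed under 1 RPKM in all 5 libraries, 4 of them at 0 throughout. Ifih1, a sensor of double-stranded RNA, stood at 0.122, 0.234 and 0.0682 RPKM in Morc1tg/+ and at 1.86 and 0.586 RPKM in Morc1tg/tg. The effector genes Ifit1, Ifit3 and Oas2 were listed at 0 in all 5 libraries. The list median was -0.05 over 18 tested, with 2 higher and none lower at an unadjusted p under 0.05. The summed level lay apart, at 43.5 to 45.7 RPKM in Morc1tg/+ and 51.7 to 54.5 RPKM in Morc1tg/tg. Much of that gap lay in Bst2, which averaged 6.61 RPKM in Morc1tg/+ and 14.9 RPKM in Morc1tg/tg. The Bst2 groups overlapped (edgeR adjusted p = 0.985). With a list median of -0.05, the sum does not show a rise across the list. No member was called by edgeR or DESeq2.

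Of the early embryo genes that use retroviral promoters, no member had enough reads to be tested. Zfp352 had 34 reads in Morc1tg/tg replicate 2 and none elsewhere, and Zscan4c, Zscan4d and Zscan4f had none in any library. Immediate early and stress genes, a sign of handling during sorting, had a median of 0.07 over 15 members, with Zfp36 higher at an unadjusted p under 0.05. Fos, Junb and Zfp36 lay above all controls in both Morc1tg/tg libraries and none lay below, where the shares over all genes were 10.9% and 11.6%, and Egr1 stood at 227, 139 and 155 RPKM against 204 and 226 RPKM. The summed level was 268.0 to 347.7 RPKM in Morc1tg/+ and 348.2 to 353.5 RPKM in Morc1tg/tg, so the groups lay apart by less than the spread within Morc1tg/+, and the part of handling in the called genes was not tested. Histone genes whose transcripts lack a poly(A) tail, a sign of library make-up, had a median of -0.17 over 49 members, with 2 lower at an unadjusted p under 0.05. Neither list held a gene called by edgeR or DESeq2.

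**Figure D3:**
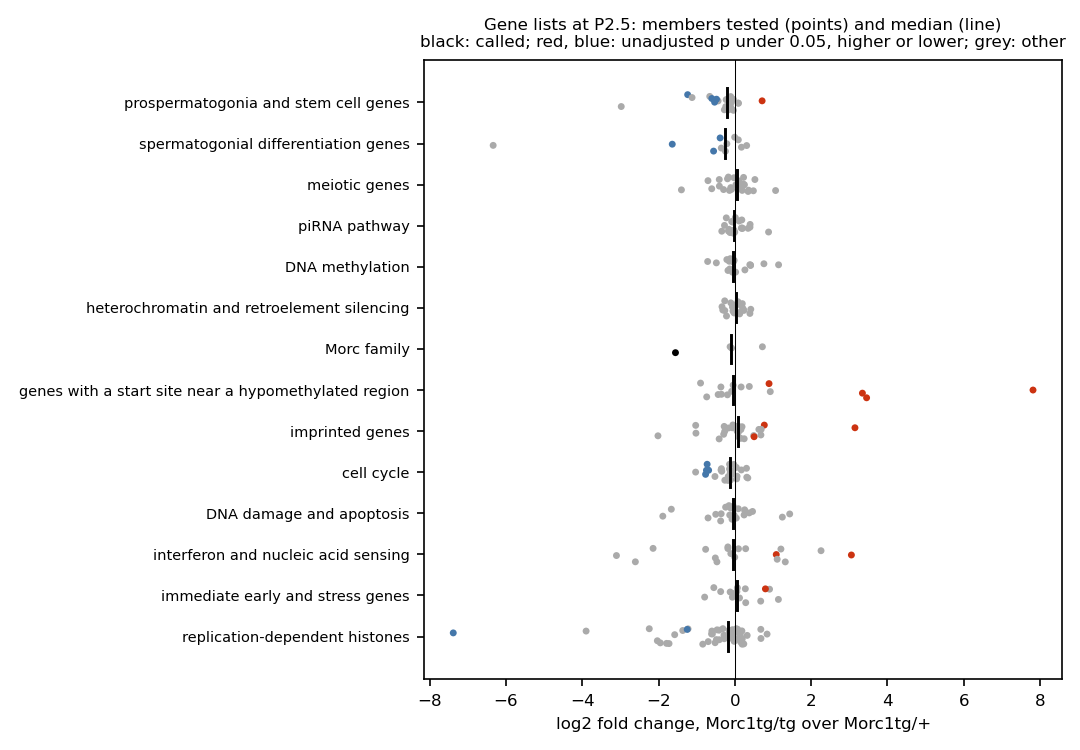
Log2 fold change of Morc1tg/tg over Morc1tg/+ (horizontal axis) for the tested members of each gene list (rows), with the list median as a black bar. Black marks a called gene, red and blue mark members higher or lower at an unadjusted p under 0.05, and grey marks the rest. Morc1 is the one called member, and the medians lie between -0.25 and 0.09.

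The sorted cells carried their defining markers. The summed level of 14 germ cell markers was 980.5 to 1140 RPKM in Morc1tg/+ and 911 to 1103 RPKM in Morc1tg/tg. Their median log2 fold change was -0.19, with 1 lower and 0 higher at an unadjusted p under 0.05. The levels of 11 Sertoli cell markers summed to 39.0 to 41.2 RPKM in Morc1tg/+ and 51.2 to 56.6 RPKM in Morc1tg/tg, so the groups lay apart. The median of the 11 was 0.43 on the log2 scale, with 1 higher and 0 lower at an unadjusted p under 0.05. In counts scaled to depth, both Morc1tg/tg libraries lay above all controls in 3 of the 11 and below in 1. The shares over all genes were 10.9% and 11.6%. The Sertoli hormone gene Amh was lower in values, at 4.69, 8.16 and 6.89 RPKM against 2.56 and 3.91 RPKM, and Clu higher, at 15.7, 15.5 and 12.3 RPKM against 24.3 and 22.1 RPKM. No marker was called by edgeR or DESeq2, and the part of Sertoli cells in the called genes was not tested.

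Other cell types of the testis left small sums. The levels of 12 peritubular and stromal markers summed to 10.1 to 14.3 RPKM in Morc1tg/+ and 12.2 to 21.2 RPKM in Morc1tg/tg. Of these, Lum and Tcf21 were at 0 in all libraries. Over the 8 tested the median was 0.82 on the log2 scale, with 2 higher and 1 lower at an unadjusted p under 0.05. In counts scaled to depth, both Morc1tg/tg libraries lay above all controls in 3 of the 8 and below in none. The shares over all genes were 10.9% and 11.6%. Of the fibrillar collagen genes, Col1a1 stood at 6.62, 4.17 and 2.99 RPKM in Morc1tg/+ and at 2.98 and 1.55 RPKM in Morc1tg/tg. Col1a2 stood at 0.168, 0.296 and 0.0175 RPKM against 1.83 and 0.695 RPKM, and Col3a1 at 0, 0 and 0.152 RPKM against 0.429 and 0 RPKM. The part of stromal cells in the level of Col6a3 was not tested.

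Ctsh is also a lysosomal gene of macrophages. The levels of 8 macrophage markers summed to 13.9, 7.11 and 2.32 RPKM in Morc1tg/+ and to 30.8 and 3.87 RPKM in Morc1tg/tg, highest in Morc1tg/tg replicate 1, the library with more Ctsh. Lyz2 was at 0 in all 5 libraries and C1qa was read in that library alone. The 3 markers with enough reads to be tested had log2 fold changes of 1.05 to 2.22, none of them at an unadjusted p under 0.05. Morc1tg/+ replicate 1, with a sum of 13.9 RPKM, had no Ctsh read, and Morc1tg/tg replicate 2, with a sum of 3.87 RPKM, had 115. The part of macrophages in the level of Ctsh was not tested. Leydig cell markers summed to at most 3.14 RPKM and endothelial markers to between 20.9 and 26.4 RPKM, both with overlap between genotypes, and globin genes were at 0 apart from 0.305 RPKM of Hbb-b1 in Morc1tg/tg replicate 1.

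**Figure D4:**
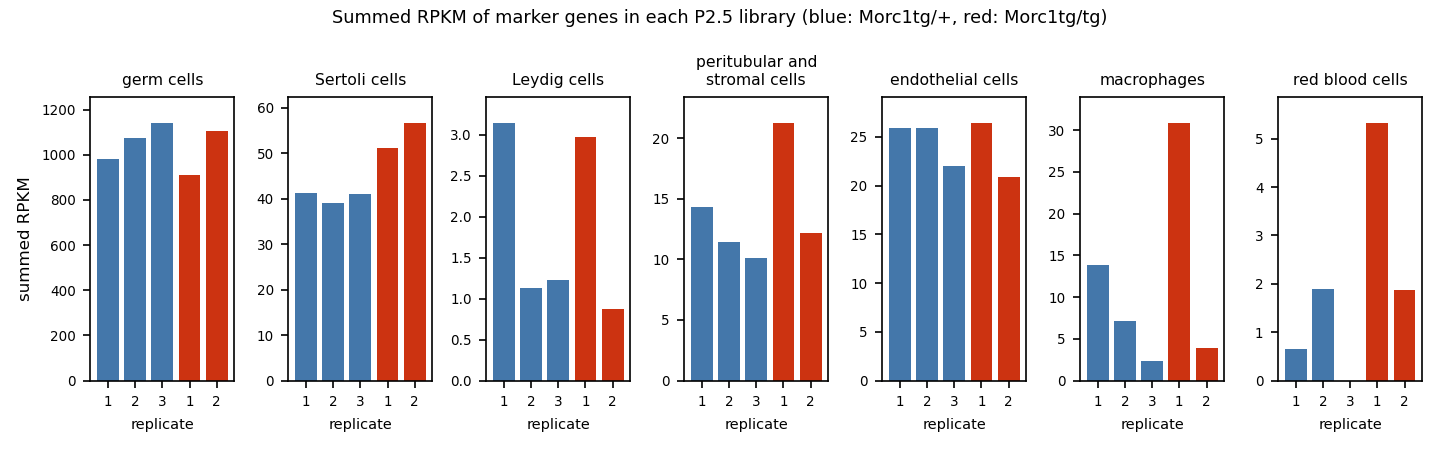
Summed RPKM of cell type markers (vertical axes from 0, each on its own scale) in each P2.5 library, blue for Morc1tg/+ and red for Morc1tg/tg. Germ cell markers are at 911 RPKM or more in every library, Sertoli markers are higher in both Morc1tg/tg libraries, and macrophage markers are highest in Morc1tg/tg replicate 1.

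Genes beside Morc1 were examined apart, since the FVB/N sequence around the allele stays linked to it. Of 69 genes within 5 Mb, Morc1 left out, 34 were tested. None was called by edgeR, DESeq2 or limma voom, and 1 had an unadjusted p under 0.05. This was Dppa4, a pluripotency gene, at 41.5, 35.7 and 41.3 RPKM in Morc1tg/+ and 57.0 and 54.3 RPKM in Morc1tg/tg (log2 fold change 0.47 ± 0.21 SE, edgeR adjusted p = 0.968). The median of the 34 was 0.07, and both Morc1tg/tg libraries lay above all controls in 8 of them and below in 2, where the shares over all genes were 10.9% and 11.6%. Within 2 Mb the median was 0.36 over 9 tested, with 4 above all controls and none below. The 4 of 9 lay above the share of 10.9%, but the genes are few and the set was not tested.

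The question whether P2.5 differed from other ages was put to the sorted germ cells of the embryonic days E16.5 and E18.5, each with 2 libraries of each genotype, and of P10.5, with 4 Morc1tg/+ and 3 Morc1tg/tg libraries. The fit within each stage called 70 genes at E16.5 (0.421%), 6 at E18.5 (0.0416%) and 1712 at P10.5 (12.2%). Depth differed, with 7610757 to 14918478 reads on genes per library at E16.5, 2698197 to 4007833 at E18.5 and 7474627 to 9641942 at P10.5. The cells at P10.5 were sorted by surface proteins instead of the reporter. The paper describes the cross into the reporter's mixed background for sorting from E16.5 to P2.5 only. Age, sort and any difference in strain background therefore cannot be told apart at P10.5. Of the 6 genes that rose at P2.5, 3 were also called higher at E16.5 (Cd209c, Col6a3 and Cdh12), 1 at E18.5 (2610005L07Rik) and all 6 at P10.5.

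Levels of these genes took different courses. The control level of 2610005L07Rik averaged 17.3 RPKM at E16.5, 2.48 at E18.5, 1.95 at P2.5 and 5.16 at P10.5, whereas the Morc1tg/tg level averaged 19.4, 18.8, 13.2 and 24.0 RPKM. The genotypes lay close at E16.5 and apart from E18.5 on, and the difference in log2 fold change between P2.5 and E16.5 was 2.65 ± 0.35 SE (edgeR adjusted p = 0.000566). The control level of Ctsh averaged 4.37 RPKM at E16.5, 4.11 at E18.5, 0.0359 at P2.5 and 0.401 at P10.5, whereas the Morc1tg/tg level averaged 6.94, 4.60, 9.40 and 13.7 RPKM. Its log2 fold change at P2.5 exceeded that at E16.5 by 7.04 ± 1.19 SE and that at E18.5 by 7.35 ± 1.21 SE (edgeR adjusted p = 0.0100 and 0.00380).

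Col6a3 and Cd209c were called higher at E16.5 and P10.5 but not at E18.5 (edgeR adjusted p = 0.241 and 0.737). Col6a3 averaged 1.72 RPKM in Morc1tg/+ and 3.41 RPKM in Morc1tg/tg at E16.5, and its log2 fold change at P2.5 was larger by 4.70 ± 0.72 SE (edgeR adjusted p = 0.00322). At E18.5 it averaged 0.0671 against 2.28 RPKM, a log2 fold change of 5.23 ± 1.05 SE, and the difference from P2.5 was not called (edgeR adjusted p = 0.968). Cd209c averaged 1.83 RPKM in Morc1tg/+ and 7.35 RPKM in Morc1tg/tg at E16.5. The same means were 1.77 against 8.83 RPKM at E18.5 and 2.91 against 44.3 RPKM at P10.5, and none of its differences from P2.5 was called. Samd9l averaged 0.704 and 1.25 RPKM at E16.5, and Cdh12 0.514 and 1.90 RPKM. For Cdh12 none of the 3 differences was called, with an edgeR adjusted p of 0.0546 against E18.5.

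**Figure D5:**
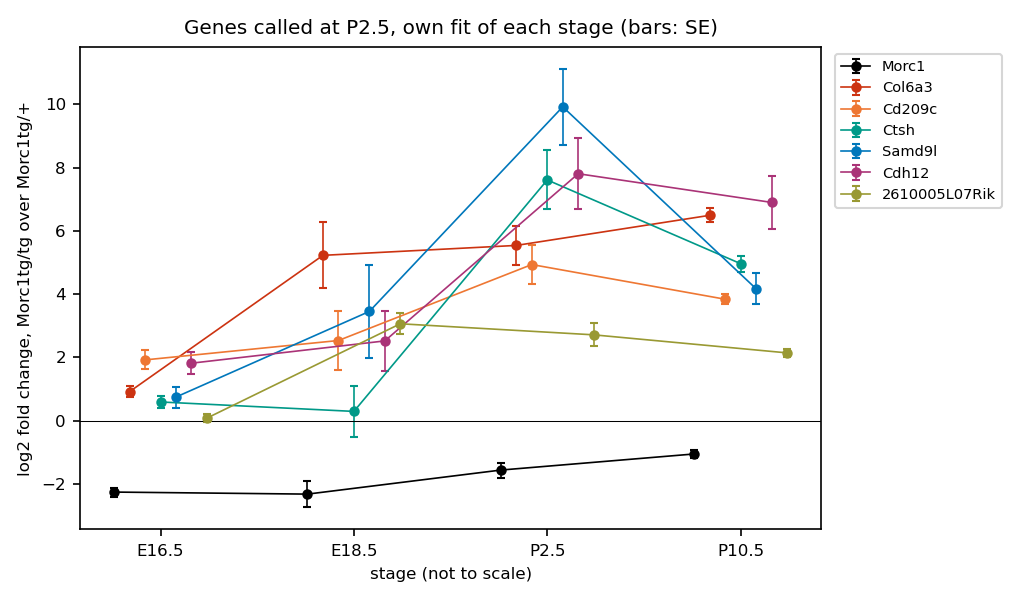
Log2 fold change of Morc1tg/tg over Morc1tg/+ (vertical axis, bars are SE) for the 7 genes called at P2.5, from the fit of each stage (horizontal axis, not to scale). Morc1 lies below 0 at every stage, and the points of the other 6 lie above 0 at every stage. The bars of 2610005L07Rik at E16.5 (0.08 ± 0.12 SE) and of Ctsh at E18.5 (0.30 ± 0.80 SE) cross 0. The points of Samd9l, Cdh12 and Ctsh at P2.5 rest on 0, 1 and 3 control reads.

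Across all genes, the change at P2.5 differed from that at E16.5 for 10 of 17758 genes tested (0.0563%), from that at E18.5 for 201 (1.13%) and from that at P10.5 for 54 (0.304%). These 3 tests share the P2.5 libraries and took their spread from all 20 sorted libraries. With only the libraries of both stages in the fit, edgeR called no difference from E16.5 or E18.5. Some of the differences concerned genes whose genotypes lay closer together at P2.5 than at the other stage. Wdr55 stood at 21.0 to 28.8 RPKM in Morc1tg/+ and 26.4 to 36.5 RPKM in Morc1tg/tg at P2.5, and at 9.73 to 14.7 and 1.32 to 1.47 RPKM at E18.5. Neb, which encodes nebulin, stood at 10.1 to 12.9 and 13.5 to 13.7 RPKM at P2.5 and at 6.81 to 7.72 and 17.5 to 18.4 RPKM at P10.5.

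For others the log2 fold change was larger in size at P2.5, although edgeR on the P2.5 libraries called none of the 3 that follow. Chl1 had no read in the 3 P2.5 control libraries and 32 and 27 reads in Morc1tg/tg, at least 33.7-fold higher (edgeR adjusted p = 0.952 within P2.5), and at E16.5 it stood at 3.03 to 3.50 RPKM in Morc1tg/+ and 4.57 to 4.78 RPKM in Morc1tg/tg. Chl1 was called higher at P2.5 by DESeq2 and by the edgeR fit of 20 libraries, and higher at E18.5, at 0.905 to 1.60 RPKM against 8.65 to 9.54 RPKM, and at P10.5 (edgeR adjusted p = 0.0228 and 0.0132). Fgf11, a growth factor family gene, had 1, 6 and 3 reads against 10 and 55 at P2.5, where the edgeR fit of 20 libraries called it higher (adjusted p = 0.000512). At P10.5 Fgf11 stood at 5.33 to 6.30 RPKM against 1.55 to 2.48 RPKM and was called lower. In RPKM its difference was larger at P10.5, as that of Chl1 was at E16.5 and E18.5. Hsd17b4, lower in values at P2.5, stood at 35.7 to 47.5 RPKM in Morc1tg/+ and 49.6 to 53.7 RPKM in Morc1tg/tg at E16.5, and the difference in log2 fold change was -1.28 ± 0.25 SE (edgeR adjusted p = 0.0411).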

How the data were processed

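RNA-seq read counts and RPKM per gene were analysed for 5 libraries of P2.5 sorted germ cells, with 15 libraries of sorted germ cells at other ages for comparison. The authors trimmed reads to 50 bases and discarded those matching ribosomal RNA with up to 3 mismatches. The rest were mapped to annotated mm9 genes and repeats with up to 2 mismatches, and reads with a single location were kept. Reads without a match there were mapped to the mm9 genome. Counts on genes were made with HTSeq, and both the counts and RPKM were deposited. The submitters' processing notes list Bowtie and HTSeq without versions. The paper states default parameters for HTSeq and does not name the strand setting beyond that. Keeping reads with a single location can lower the level of genes whose exons resemble other annotated sequence.

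Counts were tested with edgeR 4.0.16 in R 4.3.3 (trimmed mean of M values, filterByExpr, quasi-likelihood F test of Morc1tg/tg against Morc1tg/+, Benjamini-Hochberg adjustment, called under 0.05). Differences between stages were interaction contrasts over all 20 libraries in 8 groups. RPKM as deposited gave the printed levels. The study's methods used DESeq, and DESeq2 1.42.0 and limma 3.58.1 were run as alternatives, with other normalization and filters, a replicate block and each library left out. The procedure was tested on simulated data. Groups with no read were set to a floor of 3 reads over the group, and intervals (95%) cover counting error only.

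Members and gene lists were chosen with earlier results of these data known. Named genes were Morc1 and Tyr, up to 15 called genes in each direction, filled up with non-overlapping genes of smallest p, called members and up to 4 abundant members of each list, up to 5 genes per difference between stages, and called genes within 5 Mb of Morc1. Other list members that are named had an unadjusted p under 0.05, or are genes of known role or at 0, and were chosen after their values were seen. The prospermatogonial list counts 2 gene IDs of Glis3. The results of 1 gene that the rule named, and the start windows of 2 of the genes that rose, are not reported here. No mitochondrially encoded gene was in the table. Same-numbered libraries of the genotypes deviated from their group means with correlations of 0.0788 and 0.0601. With 2 Morc1tg/tg libraries their deviations mirror each other, so these values cannot decide whether the numbers pair mice. The paper describes the heterozygotes as littermate controls, but the labels name no litters, and the main test did not pair libraries.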

Additional observations from a re-analysis of the deposited data

Results flagged for a closer look

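For 30 pairs of a named gene and another stage, the log2 fold change of Morc1tg/tg over Morc1tg/+ at P2.5 differed from that at the other stage by edgeR's test of the difference itself (adjusted p under 0.05, all 20 sorted libraries in the fit). With only the libraries of both stages in the fit, edgeR called no difference from E16.5 or E18.5, so those pairs were lost. Against P10.5 that fit kept 43 of the 54 calls over all genes and lost Trps1. The values below are the P2.5 change minus the change at the other stage, on the log2 scale. Where a genotype had no read at a stage, as Samd9l and Chl1 in P2.5 controls, Dbr1 in Morc1tg/tg at E18.5 and Adcy10 in E18.5 controls, the value depends on the prior count and is not a bound.

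Against E16.5 the P2.5 change was above for 7 genes, namely Samd9l by 9.64, Chl1 by 8.29, Ctsh by 7.04, Col6a3 by 4.70, Ky by 4.03, Fgf11 by 3.94 and 2610005L07Rik by 2.65. It was below for Hsd17b4, with a difference of -1.28. Among these genes, Samd9l, Ctsh, Col6a3 and 2610005L07Rik were called within P2.5.

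Against E18.5 the P2.5 change was above for 8 genes, namely Dbr1 by 9.48, Clec2g by 7.74, Ctsh by 7.35, Chl1 by 5.72, Ky by 3.58, Fgf11 by 3.57, Wdr55 by 3.32 and Ap1s1 by 2.87. It was below for 5 genes, with differences of -10.44 for Adcy10, -3.18 for Dock1, -1.57 for Hsd17b4, -0.99 for Prdm4 and -0.89 for Bahcc1. For Wdr55, Ap1s1 and Dock1 the genotypes overlapped in RPKM at P2.5 and did not at E18.5. Dbr1 stood at 4.08 to 4.82 RPKM in Morc1tg/+ and 4.91 to 5.29 RPKM in Morc1tg/tg at P2.5, whereas at E18.5 it had no read in Morc1tg/tg and stood at 1.77 and 3.74 RPKM in Morc1tg/+.

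Against P10.5 the P2.5 change was above for 6 genes, namely Fgf11 by 4.96, Trps1 by 4.06, Col6a5 by 3.10, Gm1564 by 1.59, Zfp592 by 1.46 and Trank1 by 1.26. It was below for 1500002O20Rik, Sdc4 and Neb, with differences of -1.85, -1.26 and -1.04. At P10.5 Col6a5 stood near 0, at 0.0455 to 0.155 RPKM in Morc1tg/+ and 0.0129 to 0.0561 RPKM in Morc1tg/tg, too low to be tested within that stage. Trps1 was also low there, at 0.177 to 0.302 and 0.0496 to 0.0994 RPKM. Sdc4 stood at 103 to 118 RPKM in Morc1tg/+ and 68.0 to 86.1 RPKM in Morc1tg/tg at P2.5, and at 40.4 to 46.4 and 77.3 to 82.6 RPKM at P10.5. Age, sort and any difference in strain background cannot be told apart in this comparison.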

How the results depend on the processing

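The 7 calls at P2.5 (6 higher, 1 lower) kept their direction under all alternatives run, but their number did not hold. DESeq2 called 21 genes (18 higher, 3 lower), 6 of them among the 7, and limma voom 12 (10 and 2), with 5 shared. Without a filter 27 were called (18 and 9), and with all 20 sorted libraries in 1 fit 79 (57 and 22), each with all 7. With replicate number as a block the count was 30 (20 and 10), again with all 7. Leaving out both libraries numbered 1 gave 109 (48 and 61). Leaving out 1 library gave 0 to 70 calls (0 to 9 higher, 0 to 61 lower), the most without Morc1tg/tg replicate 2 and none by edgeR without Morc1tg/+ replicate 2 or replicate 3. The share of higher calls moved with these settings, and a lone library left in a genotype was assumed to vary like the other genotype.

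Differences from E16.5, E18.5 and P10.5 (10, 201 and 54) became 74, 933 and 402 by DESeq2 and 58, 508 and 208 without a filter. The replicate block gave 0, 17 and 2. With the libraries of both stages alone edgeR called 0, 0 and 71, of which 28 of the 71 lay above against 35 of the 54. Leaving out 1 library gave 2 to 315, 110 to 1521 and 23 to 708, with the top for E16.5 and P10.5 again without P2.5 Morc1tg/tg replicate 2. RLE size factors gave 10, 215 and 52, and 8 calls at P2.5. The causes were not tested. Counts of the gene lists by DESeq2 and genes within 2 or 10 Mb of Morc1 (9 and 63 tested, 0 called by edgeR, 1 and 3 at an unadjusted p under 0.05) gave no call beside Morc1. Tyr was called under none of them. At 2413679 reads in the shallowest library, a gene near 1 RPKM had few reads.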
